A study of Homo sapiens with 6 samples.

Results

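The genes described here encode the machinery that removes mRNA tails and caps and then degrades the body of the mRNA, measured in the embryonic kidney line HEK293 (human) after depletion of the RNA helicase MOV10. They were chosen by name, as the rows of the half-life table whose symbol belongs to the CNOT, PAN, PARN, TOB, PABPC, TNRC6, DCP, EDC, PATL1, LSM, XRN, EXOSC, DIS3, SKIV2L or TTC37 series. That rule found 43 of the 7682 genes in the table, and no measured value entered it. They are 7 CCR4-NOT genes, 5 genes of PAN2-PAN3, PARN and the TOB adaptors, 1 poly(A)-binding protein gene, 3 GW182 genes, 6 decapping genes, 10 LSM genes, 1 nuclear 5'-to-3' exonuclease gene, 9 exosome genes and 1 helicase gene of the SKI complex. Subunits listed under other symbols, such as RQCD1 and C2orf29 of CCR4-NOT and WDR61 of SKI, are not matched by the rule.

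Cells received either MOV10 siRNA or a mock transfection, and both conditions were labelled with 700 µM 4-thiouridine for 60 min before harvest. Total RNA, labelled RNA (made during the labelling) and flow-through RNA (left unlabelled) were sequenced as poly(A)+ libraries, and the authors computed an mRNA half-life for each gene and replicate from these fractions. The 6 samples listed are the 3 fractions of each condition, while the table has replicates 1 and 2 of each, so every group holds 2 columns. Whether the replicates came from independent cultures is not stated, and the p-values therefore describe the spread of these columns, which may be technical. A knockdown in a single cell line limits the comparison to that line, and some MOV10 RNA remained in it. The samples name no control siRNA, so loss of MOV10 and other effects of introducing an siRNA cannot be told apart.

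An mRNA usually begins to decay when its poly(A) tail is shortened, first by PAN2-PAN3 and then by the CCR4-NOT complex. The cap is then removed by DCP2 with its activators, which opens the message to 5'-to-3' exonucleases, while the RNA exosome degrades it from the other end. GW182 proteins link microRNA-loaded Argonaute to the deadenylases, and MOV10 is a known partner of Argonaute and of UPF1, the helicase of nonsense-mediated decay. In such bulk RNA a level is an average over all cells, so fewer cells of a kind and less RNA per cell cannot be told apart.

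Comparisons were made on genes whose total RNA value averaged 5 or more over the 4 total RNA columns, 6264 of 7682, among them 42 of the 43 decay-machinery genes. TNRC6B lay below that minimum. TNRC6C averaged under 5 in mock cells and was kept through its higher siRNA values, so its being tested is not independent of its rise. Changes are differences of mean log2(value + 1), or of mean log2 half-life, siRNA minus mock, each relative to the median gene of its column. A fold is the ratio of the mean values, without the added 1 or centring. It was not itself tested and need not match the log2 change beside it. A gene is said to have risen or fallen where limma gave a Benjamini-Hochberg adjusted p under 0.05 over all 6264 genes. Before centring, the median of all genes moved by 0.14 in labelled RNA and by 0.20 in half-life, and by -0.01 in total and 0.02 in flow-through RNA. The expression values are normalised by the authors in a unit that is not named, so RNA levels are compared between conditions for 1 gene and never between genes. Total counts per library are unknown. The targeted gene, MOV10, had total RNA values of 3.53 and 3.64 after siRNA, against 13.1 and 14.6 in mock cells, a 3.86-fold lower level (log2 change -1.67, limma, Benjamini-Hochberg adjusted p = 3.59e-08). Of 7 marker genes listed for the HEK293 line, VIM, CDH2 and INA were in the table, and of 11 markers of blood, fibroblasts, liver, endothelium, muscle and glia 0 were. The table holds no gene with a value below 1.00 in any column, so a marker outside it gives no level.

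Short words of the 3' UTR are shown first, because the genes below are compared with the rest of the table by them. The 7-base word TACTGCA, which an earlier analysis of these data had singled out, lay in an annotated 3' UTR of 40.8% of the 272 genes with a 3' UTR whose half-life fell, in 4.39% of the 114 whose half-life rose, and in 12.1% of all 5853 tested genes with a 3' UTR. Among the decay-machinery genes 5 of 43 (11.6%) carried it, near the share of all genes. The word was picked on these data, so its shares support nothing by themselves. It was searched on the transcript strand alone, as were the AU-rich words. The sites below, read 5' to 3' from GENCODE v29 transcripts with 10 bases on each side, have the word in capitals.
CNOT6: cttccaggcaTACTGCAttctgtggat
CNOT6L: atggctgtgtTACTGCAcactggatct
EXOSC6: atggtcaagcTACTGCActccattata
LSM5: ttgtttattcTACTGCAgtagccagtg
TNRC6B: ttcttagtgtTACTGCAaaaaaaaaaa
Of these 5 genes, 4 were tested and 0 of them had a shorter half-life by limma at an adjusted or an unadjusted 0.05. Of all 706 tested genes with the word, 111 had a half-life that fell, and 4 genes are too few to set against that share. CNOT6 and CNOT6L, catalytic deadenylase subunits and close paralogs, had half-life changes of 0.33 and 0.37, LSM5 of 0.31 and EXOSC6 of 0.05. A match is a stretch of letters in an annotation and not a shown binding site.

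The AU-rich pentamer ATTTA, the core of elements known to mark short-lived mRNAs, lay in 33 of the 43 3' UTRs (76.7%), against 74.2% of all tested genes. The number of copies was 17 or more in 6 genes, with 26 in CNOT6L, 24 in DCP2, 23 in DIS3, 20 in CNOT7, 20 in TNRC6B and 17 in CNOT6. Shown for CNOT6, CNOT6L and DCP2 is the first 30-base stretch with the largest number of copies in such a stretch, with the pentamers in capitals.
CNOT6: tagagtttcactttgtactATTTAaATTTA
CNOT6L: ataaagtataggtcaaATTTAaattATTTA
DCP2: actcATTTAttgtcttctggaaaccATTTA
These 3 were chosen for display after their values were seen, as the genes in which flow-through RNA rose relative to labelled RNA. DIS3 and CNOT7, with more copies than CNOT6, did not pass that test, and TNRC6B was not tested. The pentamer was not found in the annotated 3' UTR of 10 genes, among them LSM14B and EDC3, in which flow-through RNA fell relative to labelled RNA, and 8 that did not pass. The longer AU-rich word TTATTTATT, which contains the pentamer, was in 2 of the 43 (4.65%), against 9.17% of tested genes. EXOSC6, a ring subunit of the exosome with a short-lived mRNA, has 2 overlapping copies, of which the first is shown.
EXOSC6: tatatttattTTATTTATTtattaattat

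How long do mRNAs of the decay machinery last in cells with MOV10? In mock cells the mean half-lives of the 43 genes ran from 86.4 min (TOB1) to 1843 min (EXOSC1), a 21.3-fold span, with a median of 569 min against 686 min for all 7682 genes. Among tested genes the medians of the 2 mock columns were 564 and 612 min for the 42, against 736 and 800 min for all. The tails held shares nearer those of the whole table: 9 of 43 (20.9%) lay below the table's lower quartile and 34 of 43 (79.1%) below its upper quartile. TOB1, EXOSC6 and TOB2 were the shortest-lived, and the TOB genes encode antiproliferative adaptors that recruit CCR4-NOT to poly(A)-binding protein. TOB1 was at 116 and 136 min after siRNA, against 79.3 and 93.5 min in mock cells, and its mock mean stood at percentile 1.90 of all genes. TOB2 was at 115 and 130 min after siRNA, against 112 and 137 min in mock cells (percentile 4.17). Both replicates of TOB1 were higher after siRNA than in mock cells, whereas those of TOB2 overlapped.

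Subunits of a single complex did not share a half-life. Among the exosome genes EXOSC6 was at 129 and 155 min after siRNA, against 117 and 121 min in mock cells (percentile 3.89), while EXOSC1, a cap subunit that binds RNA, lay at 2182 and 2549 min, with mock values of 1713 and 1974 min (percentile 93.8). The longer mock mean was 15.4 times the shorter. EXOSC4, another ring subunit, was also short-lived, at 252 and 378 min after siRNA and 326 and 283 min in mock cells. The catalytic exosome nuclease gene DIS3 was at 595 and 788 min after siRNA, against 565 and 572 min in mock cells. Its cytoplasmic paralog DIS3L had 755 and 1016 min after siRNA and 672 and 778 min in mock cells.

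In CCR4-NOT the ubiquitin ligase gene CNOT4 was the shortest-lived, at 188 and 273 min after siRNA and 200 and 233 min in mock cells. The scaffold gene CNOT1 was the longest-lived, at 1027 and 1448 min after siRNA and 1110 and 1259 min in mock cells. Of the deadenylase PAN2-PAN3, the nuclease gene PAN2 was at 1062 and 1560 min after siRNA, against 1103 and 1273 min in mock cells. The gene of its partner PAN3 was at 2157 and 2382 min after siRNA, against 1493 and 1869 min in mock cells, among the longest of all. The siRNA and mock replicates overlapped in CNOT4, CNOT1 and PAN2 and were apart in PAN3. XRN2, the nuclear 5'-to-3' exonuclease, stood at percentile 92.1, with 1861 and 2540 min after siRNA and 1652 and 1837 min in mock cells.

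The GW182 genes had the lowest median of any role with more than 1 gene, 227 min in mock cells. TNRC6B was at 230 and 359 min after siRNA and 223 and 230 min in mock cells. TNRC6C half-lives were 246 and 423 min after siRNA and 196 and 243 min in mock cells. TNRC6A was at 472 and 607 min after siRNA, against 371 and 414 min in mock cells. Both siRNA replicates lay over both mock ones in TNRC6A and TNRC6C, and those of TNRC6B overlapped. In the decapping genes the DCP2 activator gene DCP1B was the shortest-lived, at 167 and 213 min after siRNA and 151 and 182 min in mock cells. Its paralog DCP1A had 395 and 554 min after siRNA and 383 and 388 min in mock cells. The scavenger decapping enzyme gene DCPS was the longest-lived of the group, with 622 and 801 min after siRNA and 722 and 780 min in mock cells. The replicates of DCP1B and DCPS overlapped between conditions. Among the LSM genes LSM1, the subunit that defines the cytoplasmic ring, was at 381 and 550 min after siRNA and 356 and 390 min in mock cells. LSM5, shared by the nuclear and cytoplasmic rings, had 1936 and 2824 min after siRNA and 1619 and 1672 min in mock cells. The remaining singletons were PABPC1L, a relative of the main poly(A)-binding protein gene (428 and 798 min after siRNA, 525 and 452 min in mock cells), and SKIV2L, the helicase that feeds the cytoplasmic exosome (1176 and 1804 min, against 1352 and 1348 min). In all but TOB2 and EDC3 siRNA replicate 2 was the highest of the 4 columns, as it was for the median of all tested genes, which stood at 754 and 1021 min after siRNA and 736 and 800 min in mock cells.

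**Figure D1:**
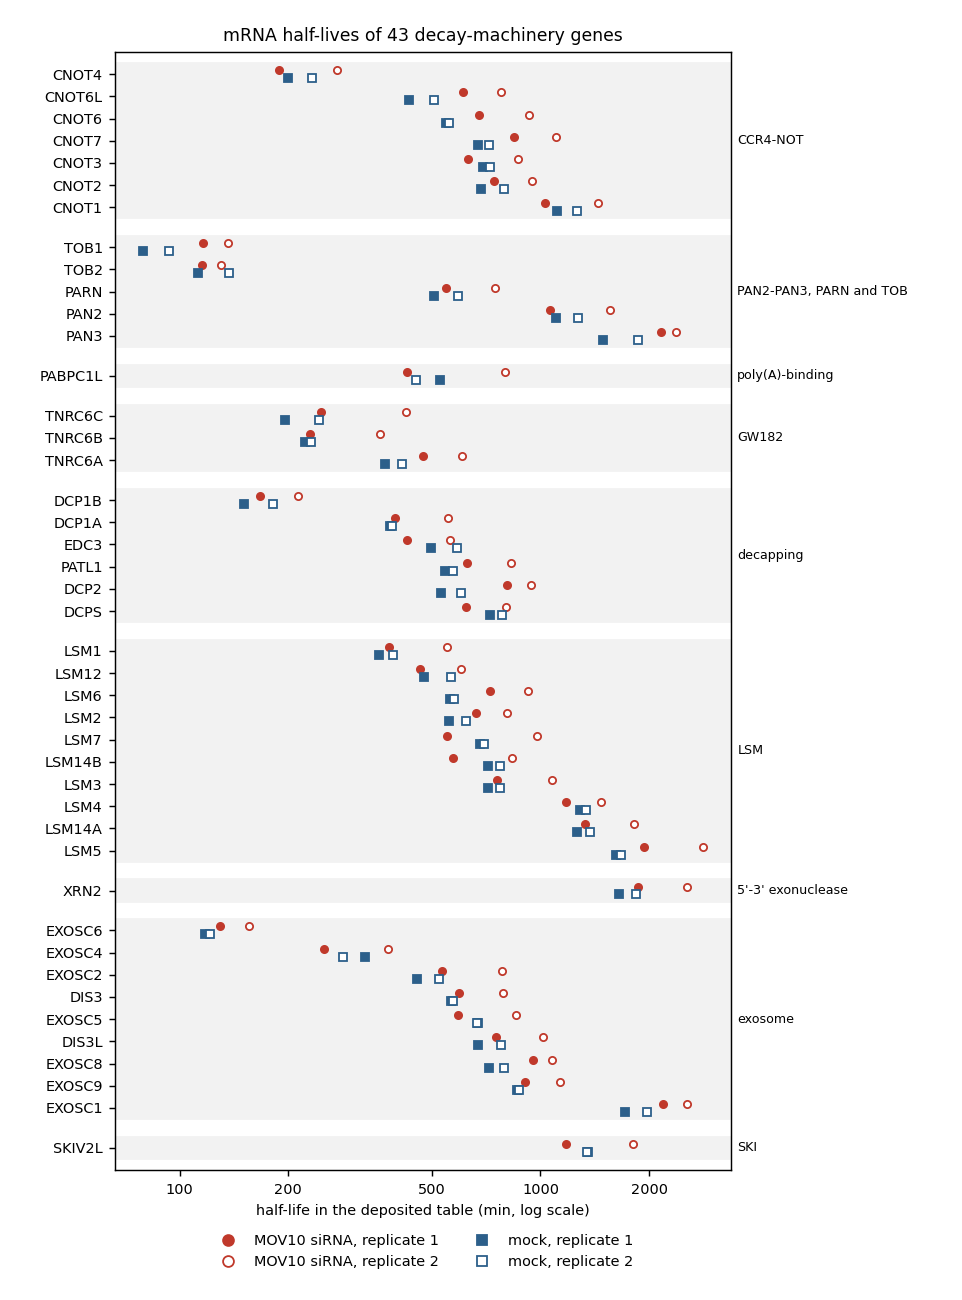
Half-lives in the authors' table in minutes on a log scale for the 43 genes, grouped by role, with circles for MOV10 siRNA and squares for mock cells (filled for replicate 1, open for replicate 2). TOB1, TOB2 and EXOSC6 lie at the short end near 100 min, and EXOSC1, XRN2, PAN3 and LSM5 at the long end.

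Did half-lives of decay-machinery mRNAs change when MOV10 was depleted? None of the 42 tested genes passed over all genes (limma, Benjamini-Hochberg adjusted p under 0.05), against 6.5% of all tested genes (2.01% longer and 4.49% shorter). At an unadjusted 0.05, 12 of 42 passed, 9 longer and 3 shorter, against 24.8% of all tested genes. The median change of the 42 was 0.07, against 0.0035 for all genes, and 26 of 42 lay above the median gene. The largest change was that of DCP2, the decapping enzyme, at 806 and 940 min after siRNA and 529 and 604 min in mock cells (0.43 ± 0.11 SE on the log2 scale, limma, Benjamini-Hochberg adjusted p = 0.0626). Both siRNA replicates of DCP2 lay above both mock replicates in minutes. Minutes are not centred, and before centring the median of all genes moved up by 0.20 in half-life.

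The 3 measured catalytic deadenylase genes of CCR4-NOT had longer half-lives at an unadjusted 0.05 only. CNOT6 was at 677 and 929 min after siRNA and 546 and 558 min in mock cells, and CNOT6L at 610 and 776 min after siRNA and 431 and 506 min in mock cells. CNOT7, the other type of catalytic subunit, was at 846 and 1106 min after siRNA and 672 and 721 min in mock cells (0.28). In all 3 the siRNA replicates were the higher ones in uncentred minutes, with adjusted p of 0.0785, 0.0692 and 0.107 (limma, Benjamini-Hochberg). The other 4 CCR4-NOT genes found by symbol lay between -0.15 (CNOT1) and -0.0044 (CNOT2). CNOT3 and CNOT4 were at -0.13 and -0.12.

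On the shorter side, the decapping enhancer gene EDC3 was at 425 and 563 min after siRNA and 497 and 586 min in mock cells (-0.33, limma, Benjamini-Hochberg adjusted p = 0.0798). The EDC3 replicates overlapped between conditions in minutes, with a mean of 494 min after siRNA and 542 min in mock cells, and without centring the log2 change was -0.14. With the table limited to genes with a mean total value of 20 or more its Benjamini-Hochberg adjusted p was 0.0423. LSM14B, a translational repressor of P-bodies, had 572 and 836 min after siRNA and 715 and 772 min in mock cells (-0.30), and DCPS had a change of -0.28. TNRC6A and TNRC6C were at 0.26 and 0.37, LSM5 and LSM6 at 0.31 and 0.33, and TOB1 at 0.35 with its paralog TOB2 at -0.21. The difference between the paralogs was not tested. Of the exosome genes 0 of 9 passed an unadjusted 0.05, against 24.8% of all tested genes, with changes from -0.17 (EXOSC4) to 0.23 (EXOSC8). With 9 genes this difference was not tested. PAN3 was at 0.25 and PAN2 at -0.07, PARN, a poly(A)-specific ribonuclease gene, at 0.03 and XRN2 at 0.13.

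Half-lives recomputed from the 3 fractions with 1 rule for all columns called 3 of the 42 genes, all higher, against 8.37% of all genes. They were DCP2 (0.53, limma, Benjamini-Hochberg adjusted p = 0.0255), CNOT6L (0.46, 0.0284) and CNOT6 (0.40, 0.0383). Both sets of half-lives come from the same expression values and are not independent.

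Which of these genes changed in abundance? In total RNA 9 of 42 genes (21.4%) passed the test, 6 higher and 3 lower, against 28.5% of all tested genes (13.6% higher and 15% lower). The median change of the 42 was 0.06, against 0.01 for all genes. The genes that rose were TNRC6A and TNRC6C of the GW182 group, DCP2 and PATL1 of the decapping group, and CNOT6 and CNOT6L of CCR4-NOT. Those that fell were EDC3, LSM12 and LSM14B. With the minimum asked of both conditions TNRC6C was left out. Then 8 of 41 genes passed (19.5%), 5 higher and 3 lower, against 27.2% of all tested genes. None of the 9 exosome genes passed in total RNA, where their changes lay between -0.10 and 0.13, and 0 did at an unadjusted 0.05, against 40.3% of all tested genes.

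The GW182 gene TNRC6A had the largest rise. Its total RNA was 15.0 and 14.4 after siRNA and 9.76 and 9.63 in mock cells, a mean of 14.7 ± 0.439 against 9.69 ± 0.0920 (SD, n = 2 columns), a 1.51-fold higher level (0.57 ± 0.08 SE on the log2 scale, limma, Benjamini-Hochberg adjusted p = 0.000202). Both siRNA columns lay well above both mock columns, and the same held in the other fractions. Labelled TNRC6A RNA was 15.0 and 16.1 after siRNA and 10.6 and 10.6 in mock cells (0.39, limma, Benjamini-Hochberg adjusted p = 0.00767). Flow-through TNRC6A RNA was 16.4 and 16.1 after siRNA and 9.36 and 9.95 in mock cells (0.72, limma, Benjamini-Hochberg adjusted p = 0.000503). TNRC6A was the only 1 of the 42 genes that rose in total, labelled and flow-through RNA. The share of all tested genes that rose in total, labelled and flow-through RNA alike was not counted. Whether this pattern is unusual in the table is therefore not known.

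TNRC6C total RNA was 6.13 and 6.71 after siRNA and 4.58 and 4.78 in mock cells, 1.37-fold higher (0.40 ± 0.10 SE on the log2 scale, limma, Benjamini-Hochberg adjusted p = 0.00750). TNRC6C reached the expression minimum only through its siRNA values, so this call is not independent of its rise. The call was lost without siRNA replicate 2 (0.34, limma, Benjamini-Hochberg adjusted p = 0.0826). Its flow-through RNA rose by 0.58 (0.50 without siRNA replicate 2, where the call was lost), and its labelled RNA had a change of 0.19 that did not pass. TNRC6B, below the expression minimum, was at 4.30 and 4.42 after siRNA and 3.46 and 3.52 in mock cells. Tested without the minimum, TNRC6B had a change of 0.28 in total RNA (limma, Benjamini-Hochberg adjusted p = 0.0517). In total RNA both siRNA columns were above both mock columns in each of the 3 GW182 genes. They are paralogs, and how the counting treated reads that fit more than 1 of them is not given. An antisense gene, TNRC6C-AS1, overlaps TNRC6C exons in the annotation, and the strand setting of the counting is not given.

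In the decapping group 3 of 6 genes passed in total RNA (50%, against 28.5% of all tested genes). DCP2 and PATL1 rose and EDC3 fell. DCP2 total RNA was 15.4 and 14.6 after siRNA and 10.7 and 9.60 in mock cells, 1.48-fold higher (0.54 ± 0.09 SE on the log2 scale, limma, Benjamini-Hochberg adjusted p = 0.000708). DCP2 flow-through RNA was 11.8 and 12.4 after siRNA and 8.73 and 9.29 in mock cells (0.41), whereas its labelled RNA was 6.50 and 8.11 against 7.14 and 7.02 and overlapped. PATL1, a scaffold that bridges deadenylation and decapping, had total RNA of 16.7 and 17.7 after siRNA and 13.3 and 14.9 in mock cells, 1.21-fold higher (log2 change 0.28, limma, Benjamini-Hochberg adjusted p = 0.0161). The PATL1 call was lost without siRNA replicate 1 (0.33, limma, Benjamini-Hochberg adjusted p = 0.0515), without siRNA replicate 2 (0.24, 0.187) and without centring (0.26, 0.0601).

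EDC3 total RNA was 24.0 and 24.3 after siRNA and 28.6 and 31.5 in mock cells, 1.25-fold lower (-0.28 ± 0.07 SE on the log2 scale, limma, Benjamini-Hochberg adjusted p = 0.00974). The groups did not overlap, but the call was lost without siRNA replicate 1 (-0.27, limma, Benjamini-Hochberg adjusted p = 0.116) and without siRNA replicate 2 (-0.30, 0.0656). All 6 decapping genes passed in flow-through RNA, as did 58.9% of all tested genes, with DCP1A, DCP1B, DCP2 and PATL1 higher (0.30, 0.27, 0.41 and 0.21) and EDC3 and DCPS lower (-0.23 and -0.47). DCP1B flow-through RNA lost its call without siRNA replicate 1 (0.22), siRNA replicate 2 (0.31) or mock replicate 1 (0.17), EDC3 without mock replicate 2 (-0.18), and PATL1 without siRNA replicate 1 (0.14), mock replicate 1 (0.21) or mock replicate 2 (0.21). DCPS flow-through RNA was 11.5 and 9.75 after siRNA and 15.5 and 15.3 in mock cells.

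Of the 7 CCR4-NOT genes found by symbol 2 passed in total RNA (28.6%), near the 28.5% of all tested genes. These were the CCR4-type deadenylase genes CNOT6 and CNOT6L. CNOT6 was at 17.3 and 16.7 after siRNA and 14.0 and 13.2 in mock cells, 1.25-fold higher (0.32 ± 0.08 SE on the log2 scale, limma, Benjamini-Hochberg adjusted p = 0.0115). Without siRNA replicate 1 the CNOT6 call was lost (0.30, limma, Benjamini-Hochberg adjusted p = 0.0824). CNOT6L was at 8.70 and 8.10 after siRNA and 5.98 and 6.17 in mock cells, 1.38-fold higher (0.43 ± 0.09 SE on the log2 scale, limma, Benjamini-Hochberg adjusted p = 0.00319). In both, the siRNA columns of total RNA lay above the mock columns while labelled RNA did not: labelled CNOT6 was 10.7 and 11.5 after siRNA and 11.4 and 11.6 in mock cells, and labelled CNOT6L 5.84 and 6.04 against 6.64 and 6.49. How reads shared by these paralogs were counted is not given. CNOT7 total RNA was 41.5 and 38.3 after siRNA and 36.6 and 37.4 in mock cells (0.13), and the other 4 lay between -0.21 (CNOT2) and 0.06 (CNOT1).

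Of the 10 LSM genes 2 passed in total RNA (20%, against 28.5% of all tested genes). These were LSM14B and LSM12, which both lie outside the ring complexes and both fell. LSM14B total RNA was 19.2 and 18.8 after siRNA and 28.1 and 28.97 in mock cells, 1.502-fold lower (-0.54 ± 0.07 SE on the log2 scale, limma, Benjamini-Hochberg adjusted p = 0.000117). Its paralog LSM14A, also a P-body component, was at 126 and 123 after siRNA and 115 and 120 in mock cells (0.10, limma, Benjamini-Hochberg adjusted p = 0.240). LSM12, an LSM-domain protein outside the rings, was at 56.1 and 54.8 after siRNA and 71.4 and 73.1 in mock cells, 1.30-fold lower (-0.36 ± 0.07 SE on the log2 scale, limma, Benjamini-Hochberg adjusted p = 0.00125). LSM12 also fell in labelled RNA, at 47.0 and 49.9 after siRNA and 60.1 and 52.0 in mock cells (-0.33), a call lost without mock replicate 1 (-0.27) and without centring (-0.20). In flow-through RNA LSM12 was at 59.0 and 60.0 against 87.1 and 87.4 (-0.52). LSM14B and LSM12 flow-through RNA did not overlap between conditions. None of the 7 ring genes, LSM1 to LSM7, passed in total RNA, beside 28.5% of all tested genes, and their changes ranged from -0.12 to 0.16.

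**Figure D2:**
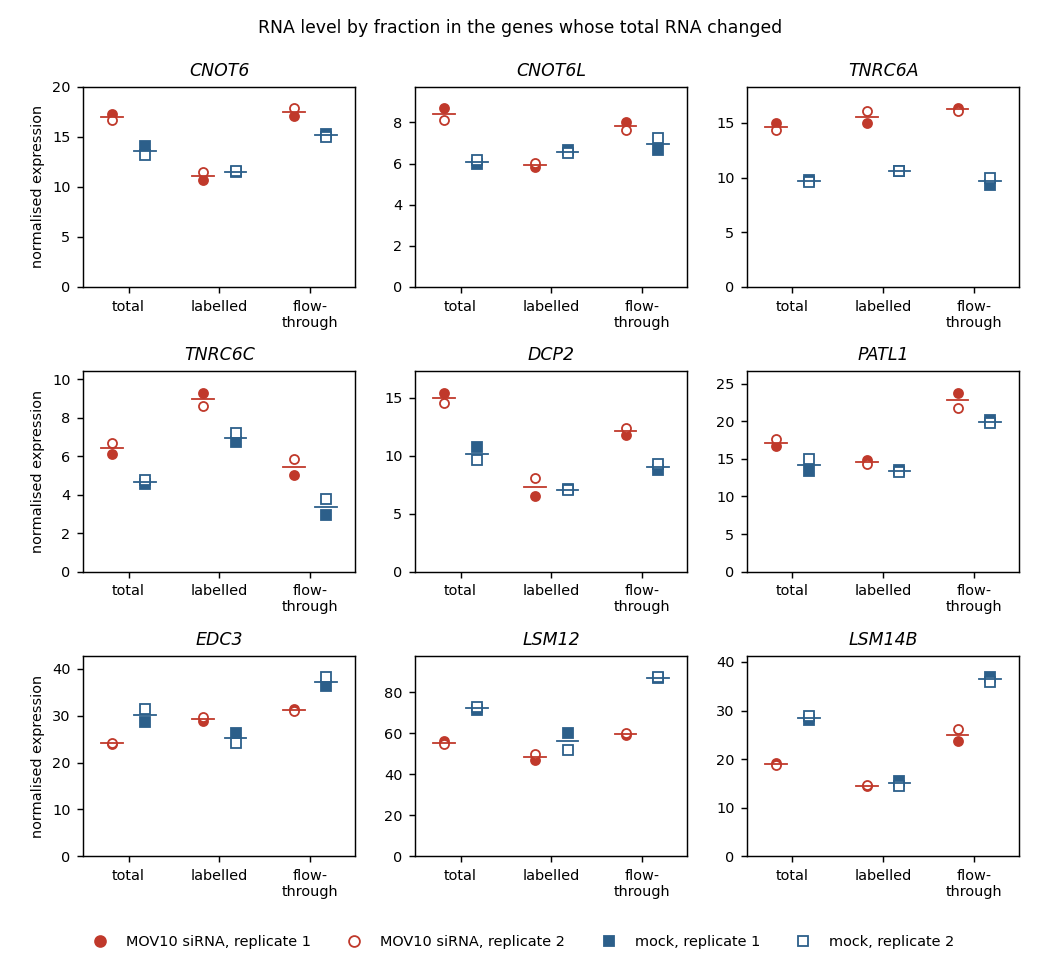
Normalised expression of the 9 genes that passed in total RNA, by fraction, with circles for MOV10 siRNA and squares for mock cells (filled for replicate 1, open for replicate 2) and a bar at each mean of 2 columns. The siRNA values of TNRC6A, TNRC6C and PATL1 lie above the mock values in each fraction, those of DCP2, CNOT6 and CNOT6L do so in total and flow-through RNA, and those of LSM12 lie below in each fraction.

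Labelled RNA, which holds RNA made in the last 60 min, changed in 5 of 42 genes (11.9%), 3 higher and 2 lower, against 21.3% of all tested genes (9.95% higher and 11.3% lower). The median change was -0.00092 in the 42 and 0.0059 in all genes. Besides TNRC6A and LSM12, these were DCP1B, EXOSC9 and EXOSC6. Without centring 13 of the 42 rose and 1 fell (33.3%), with a median of 0.13, against 1666 higher and 345 lower of all genes (32.1%), with a median of 0.14. EXOSC6 had labelled RNA of 21.3 and 20.2 after siRNA and 28.97 and 26.8 in mock cells, 1.35-fold lower (-0.54 ± 0.08 SE on the log2 scale, limma, Benjamini-Hochberg adjusted p = 0.00112). EXOSC9, another ring subunit gene, was at 19.7 and 20.5 after siRNA and 14.0 and 14.3 in mock cells, 1.42-fold higher (0.35 ± 0.08 SE on the log2 scale, limma, Benjamini-Hochberg adjusted p = 0.0115). On the tested scale, relative to the median gene, labelled EXOSC6 RNA was 1.46-fold lower and labelled EXOSC9 RNA 1.27-fold higher. The EXOSC9 call was lost without mock replicate 1 (0.29). Exons of EXOSC9 and CCNA2 overlap on opposite strands in the annotation. DCP1B was at 15.2 and 14.5 against 10.8 and 10.4 (0.31), a call lost without siRNA replicate 1 (0.27), mock replicate 1 (0.30) or mock replicate 2 (0.32).

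Flow-through RNA changed in 25 of 42 genes (59.5%), 18 higher and 7 lower, against 58.9% of all tested genes (32.4% higher and 26.5% lower). The share is that of any gene in this table, so the count says nothing particular about the decay machinery. The 42 had a median change of 0.10, against 0.04 for all genes. Exosome genes passed in 6 of 9 cases: EXOSC2, EXOSC8, EXOSC9 and DIS3L rose (0.40, 0.16, 0.35 and 0.37), and EXOSC4 and EXOSC6 fell (-0.21 and -0.48). Of these 6, DIS3L, EXOSC6 and EXOSC9 kept their call whichever column was left out. EXOSC2 lost it without siRNA replicate 2 (0.28) or mock replicate 1 (0.28), EXOSC4 without siRNA replicate 1 (-0.17), mock replicate 1 (-0.19) or mock replicate 2 (-0.22), and EXOSC8 without siRNA replicate 1 (0.10), mock replicate 1 (0.19), mock replicate 2 (0.13) or centring (0.14). EXOSC6 flow-through RNA was 8.53 and 7.65 after siRNA and 12.3 and 11.5 in mock cells. DIS3L was at 20.2 and 20.3 after siRNA and 15.8 and 15.6 in mock cells.

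Among the LSM genes 7 of 10 passed in flow-through RNA, again beside 58.9% of all tested genes. LSM1, LSM3, LSM5 and LSM14A rose (0.19, 0.25, 0.21 and 0.10), and LSM4, LSM12 and LSM14B fell (-0.42, -0.52 and -0.50). LSM4, a subunit of both rings, was at 257 and 239 after siRNA and 348 and 326 in mock cells. LSM14A lost its call whichever column was left out (0.10 in each case) and without centring (0.08), LSM1 without siRNA replicate 2 (0.16) or mock replicate 2 (0.14), and LSM5 without siRNA replicate 2 (0.12), mock replicate 1 (0.20), mock replicate 2 (0.22) or centring (0.19). XRN2 rose (0.33), at 97.4 and 104 after siRNA and 83.6 and 78.8 in mock cells, as did PAN2 (0.27). CNOT6 rose by 0.22, a call lost without siRNA replicate 2 (0.19), mock replicate 1 (0.22) or mock replicate 2 (0.22). TOB1 rose by 0.32, with 16.1 and 14.4 after siRNA and 11.3 and 13.2 in mock cells, and lost its call without siRNA replicate 1 (0.24) or mock replicate 1 (0.21). TOB2 was at 10.7 and 8.73 after siRNA against 11.5 and 12.6 in mock cells (-0.27) and did not pass. Exons of other annotated genes also overlap those of EXOSC4, EXOSC8, DIS3L, LSM1, LSM3, PAN2, PATL1, TOB1 and XRN2. The same holds for CNOT1 (up to 1086 bases), DIS3 (up to 1048 bases), CNOT2, CNOT3, CNOT7, EXOSC5 and SKIV2L. The values of all these genes are uncertain to that extent.

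**Figure D3:**
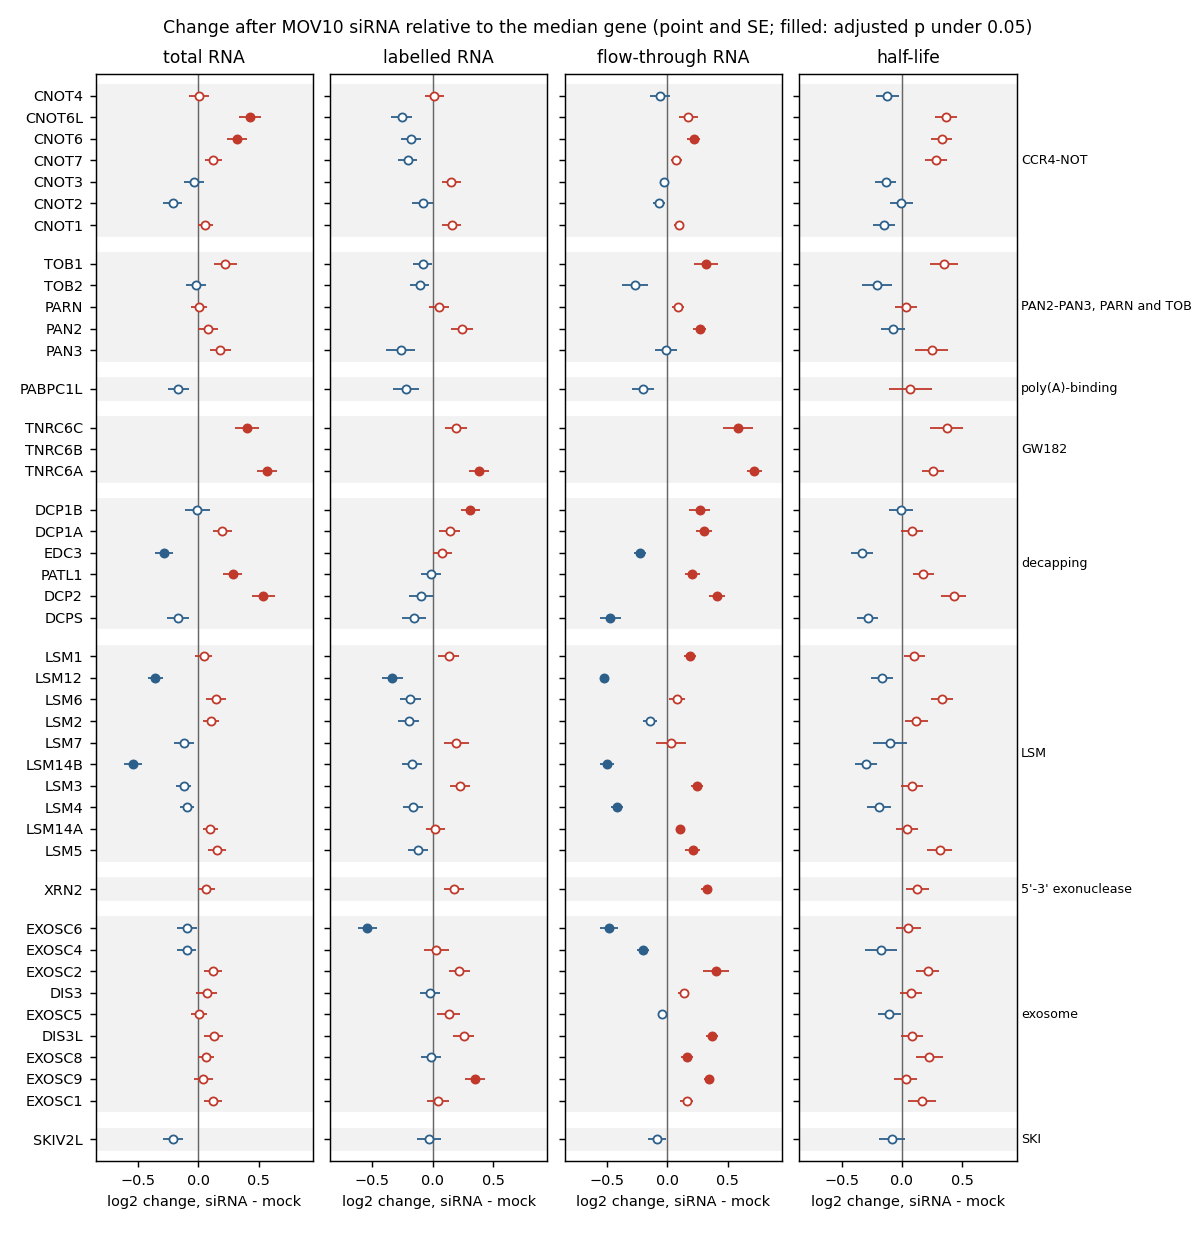
Change after MOV10 siRNA, siRNA minus mock, on the log2 scale relative to the median gene, with its SE, in total, labelled and flow-through RNA and in half-life, by role. Filled points passed limma with Benjamini-Hochberg adjustment over 6264 genes (9, 5, 25 and 0 of 42), and TNRC6B, below the expression minimum, has no point.

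Did old and new RNA of a gene change by different amounts? The difference between the siRNA effects in flow-through and in labelled RNA was tested as an interaction in 1 model over both fractions. It passed in 5 of 42 genes (11.9%), against 10.8% of all tested genes (4.76% higher and 6.07% lower). Flow-through RNA rose relative to labelled RNA in DCP2 (0.51, SE 0.13), CNOT6L (0.43, SE 0.11) and CNOT6 (0.40, SE 0.09). It fell relative to labelled RNA in LSM14B (-0.33, SE 0.09) and EDC3 (-0.30, SE 0.08). Their limma, Benjamini-Hochberg adjusted p-values were 0.0340, 0.0321, 0.0238, 0.0414 and 0.0426. DCP2, CNOT6L, CNOT6 and EDC3 also had the 4 lowest adjusted p-values of the 42 in half-life, and both measures rest on the same columns. With any 1 column left out, at most 1 of the 5 kept its call. That was DCP2 without siRNA replicate 2 (0.61). With the flow-through and labelled columns of a preparation treated as a block, 5 of the 42 rose and 0 fell (11.9%), against 10.5% of all tested genes. LSM5 (0.33) and TOB1 (0.41) were then called beside DCP2, CNOT6L and CNOT6, and LSM14B and EDC3 were not (limma, Benjamini-Hochberg adjusted p = 0.0591 and 0.0702). Without centring DCP2 (0.36), CNOT6L (0.28) and CNOT6 (0.24) lost their calls, and 0 of the 42 rose and 5 fell, against 81 higher and 1003 lower of all genes. Those 5 were LSM14B, EDC3, DCPS, LSM4 and CNOT3. TNRC6A, in which both fractions rose, had a difference of 0.33 that did not pass, and EXOSC9 changed by 0.35 in each fraction.

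The number of ATTTA copies went with the direction of change in half-life and in flow-through relative to labelled RNA across these genes. Of the 10 tested genes without the pentamer in the 3' UTR, 3 lay above the median gene in half-life change, with a median of -0.14. Of the 9 with 10 or more copies, 8 did, with a median of 0.25. Over all tested genes the shares were 36.9% of 1510 genes without it and 61.7% of 873 genes with 10 or more, with medians of -0.05 and 0.07. For the flow-through change relative to the labelled change, 3 of 10 and 9 of 9 lay above the median gene, against 31.5% and 70.3% of all. In labelled RNA the direction was the other way, with 5 of 10 and 1 of 9 above it, against 53.6% and 42.5% of all. In flow-through RNA it was 3 of 10 and 6 of 9, against 41.7% and 62.4%. Between these groups, 12 of 18 genes with 1 to 4 copies and 3 of 5 with 5 to 9 lay above the median gene in half-life change. Spearman's rho between the number of copies and the half-life change was 0.55 over the 42 genes and 0.20 over 5853 genes. With copies per base of 3' UTR it was 0.52 and 0.21, and with 3' UTR length alone 0.34 and 0.09. These are descriptions across genes that share the same columns, without a test, and the longest annotated 3' UTR need not be the one used in these cells. Genes with long 3' UTRs hold more copies of any short word.

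**Figure D4:**
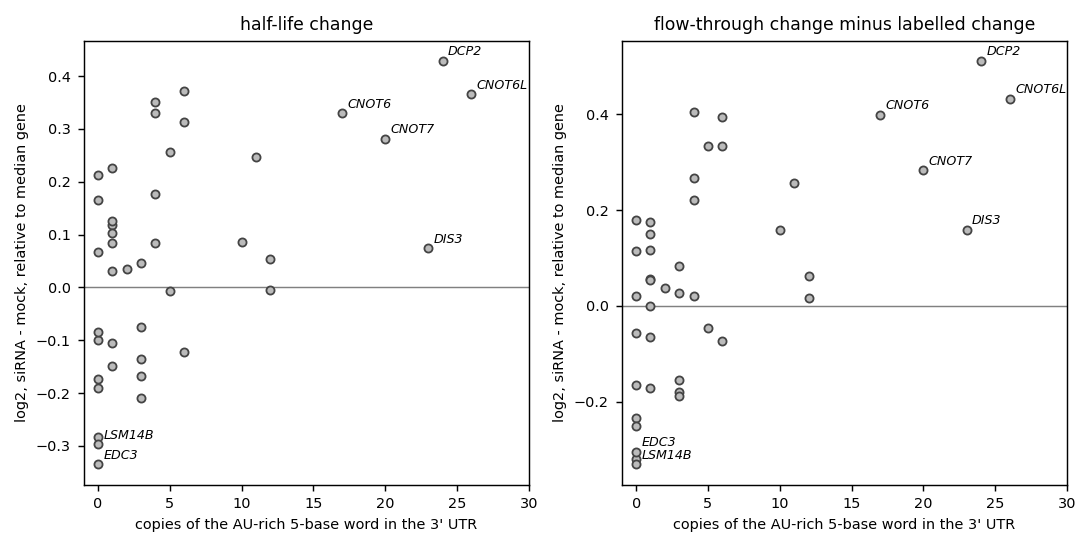
Copies of the AU-rich pentamer in the longest annotated 3' UTR of each of the 42 tested genes (x axis) against the log2 change in half-life (left) and the flow-through change minus the labelled change (right), siRNA minus mock, relative to the median gene. EDC3, LSM14B and DCPS, with 0 copies, lie lowest in both panels, DCP2, CNOT6L, CNOT6 and CNOT7, with 24, 26, 17 and 20 copies, lie at 0.28 or above in both, and DIS3, with 23 copies, has a half-life change of 0.07.

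Of 44 listed symbols of mRNA decay outside the named series, 33 were in the table and 30 were tested. Among them are RQCD1 and C2orf29, subunits of CCR4-NOT, and WDR61, a subunit of SKI. In total RNA C2orf29 rose (0.20) and WDR61 fell (-0.45), and RQCD1 had a change of -0.15 that did not pass. Their half-life changes of 0.34, -0.27 and -0.08, in that order, did not pass. In total RNA 11 rose and 3 fell (46.7%, against 28.5% of all tested genes), and in labelled RNA 2 rose and 7 fell (30%, against 21.3%). In flow-through RNA 11 were higher and 8 lower (63.3%, against 58.9%), and in the flow-through change relative to the labelled one 6 and 1 (23.3%, against 10.8%). In half-life 2 of 30 passed (6.67%, against 6.5%): BTG3, an antiproliferative relative of TOB1, rose, and ZFP36L2, which binds AU-rich elements and recruits deadenylases, fell. BTG3 half-lives were 438 and 629 min after siRNA and 276 and 271 min in mock cells (0.75 ± 0.10 SE on the log2 scale, limma, Benjamini-Hochberg adjusted p = 0.0105). ZFP36L2 half-lives were 60.6 and 91.6 min after siRNA and 99.6 and 100.0 min in mock cells (-0.62, SE 0.11, limma, Benjamini-Hochberg adjusted p = 0.0281).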

How the data were processed

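The deposited table gives, per gene, 12 columns of normalised expression signal made by the authors, whose unit and tool are not given in the sources used here, and 4 half-life columns. Reads of poly(A)+ libraries were aligned with TopHat2 2.06 to hg18, per the submitters' processing notes, and half-lives followed a published method, per the labels' protocols. Their unit is not named and was taken as minutes after recomputation: the labelled share of total RNA, from weights that a singular value decomposition gave each fraction, was turned into a half-life assuming exponential decay during the 60 min. Pearson correlations of log2 deposited and recomputed half-lives were 0.968 to 0.982 over genes, but the scales differ: deposited medians were 668 and 900 min after siRNA and 657 and 713 min in mock cells, against recomputed medians of 504 and 533 min after siRNA and 533 and 587 min in mock cells. The deposited values of siRNA replicate 2 stood furthest above the recomputed ones.

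Values were log2-transformed after adding 1 (half-lives without it) and centred per column. limma 3.58.1 in R 4.3.3 used a mean-variance trend on genes with a mean total value of 5 or more, and was checked on simulated data. The filter takes the mean over all 4 total columns, so that genes that fell stay in. Named genes were those past the test, the extremes of each role in half-life and its change, and paralogs. The genes and lists were chosen with earlier results of these data known. By symbol, the longest annotated 3' UTR of 20 bases or more in GENCODE v29 was taken, for 43 of 43 genes. Its build is not hg18, so genome coordinates are left out. The comparisons were siRNA against mock in total, labelled and flow-through RNA and in half-life, and flow-through against labelled change as an interaction. Alternatives were a different pseudocount, filter, centring or trend, a replicate block and leaving out each column, and, chosen after seeing the data, a block of the RNA preparation. Library depth is not given, which limits the precision stated for low values.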

Additional observations from a re-analysis of the deposited data

Results flagged for a closer look

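Of the 42 tested genes, 5 had an effect of MOV10 siRNA that differed between flow-through and labelled RNA by the interaction test (11.9%, against 10.8% of all tested genes). The flow-through change minus the labelled change was 0.51 in DCP2, 0.43 in CNOT6L, 0.40 in CNOT6, -0.30 in EDC3 and -0.33 in LSM14B, on the log2 scale. In DCP2 the change was 0.41 in flow-through and -0.10 in labelled RNA, in CNOT6L 0.17 and -0.26, and in CNOT6 0.22 and -0.18. In EDC3 it was -0.23 in flow-through and 0.08 in labelled RNA, and in LSM14B -0.50 and -0.17. With any 1 column left out, 0 to 1 of the 5 calls remained. Without centring DCP2, CNOT6L and CNOT6 lost theirs, and with a block of the RNA preparation EDC3 and LSM14B did.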

How the results depend on the processing

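Across the named genes, 505 of the values recomputed under another setting kept their direction and side of the threshold, 77 lost the call, 4 gained one and 0 reversed. With the table limited to genes with a mean total value of 20 or more, fewer genes are tested: total RNA gave 781 calls in 2775 genes (3 of 22 decay-machinery genes, median 0.040), labelled RNA 612 (2, 0.040), flow-through RNA 1796 (13, 0.077) and the flow-through against labelled change 327 (2, 0.023), and half-life called 1 decay-machinery gene (median 0.035). Without a filter the median was 0.023 in labelled RNA, 0.11 in flow-through RNA and 0.088 in half-life, and with the minimum asked of both conditions -0.018 and 0.087 in labelled and flow-through RNA. Without centring, labelled RNA gave 2011 calls (32.1%), 14 of them decay-machinery genes (33.3%), half-life 12 and the flow-through against labelled change 1084, of which 81 were higher and 1003 lower, and the medians over decay-machinery genes were 0.041 for total RNA, 0.13 for labelled RNA, 0.075 for flow-through RNA, 0.26 for half-life and -0.10 for the last. Recomputed half-lives called 3 decay-machinery genes (7.14%, beside 8.37% of all) with a median of 0.051, and moved the mock half-life percentile of 40 of 43, by a median of 5.82 points.

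Replicate numbers pair no samples by the labels, and deviations of same-numbered columns correlated at -0.05 to 0.10 over the 4 measures. With a replicate block 14 decay-machinery genes (33.3%) were called in total RNA, beside 2384 genes of the table (38.1%), and 228 genes of the table in half-life, and EDC3 and LSM14B lost the flow-through against labelled call.

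With each column left out in turn, 956 to 2322 genes were called in total RNA, 846 to 1396 in labelled RNA, 72 to 197 in half-life and 137 to 511 in the flow-through against labelled change. Of the decay-machinery genes, total RNA then had 6 to 14 called (median 0.044 to 0.080), labelled RNA 3 to 7 (-0.031 to 0.011), flow-through RNA 16 to 21 (0.10 to 0.12), the flow-through against labelled change 0 to 1 (0.049 to 0.078) and half-life 0 (0.055 to 0.089). A lone column is then assumed to vary like the others. The cause of these shifts was not tested. With 2 columns a group and no library depth, low values carry an error that cannot be stated.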

Other observations

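The change in total RNA would lie between those of the labelled and flow-through fractions if the 3 were on 1 scale and free of measurement error. It lay outside that range in 28 of 42 decay-machinery genes (66.7%), against 69.1% of all tested genes, and by more than 0.2 on the log2 scale in 6 (14.3%), against 18.6%. These were EXOSC6, LSM3, EXOSC9, DCP1B, CNOT6L and LSM2. EXOSC6 changed by -0.09 in total RNA, -0.54 in labelled and -0.48 in flow-through RNA, and EXOSC9 by 0.04, 0.35 and 0.35. Each fraction was centred on its own median gene, and the parts that centring and measurement error play were not tested.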
